A study of Mus musculus with 6 samples.

Results

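The myoblast fusion and adhesion genes, a set of 10 genes chosen by name, were followed in RNA-seq libraries of cultured muscle satellite cells (SCs). They are the fusion genes Mymk (myomaker, Tmem8c in the files) and Mymx (myomixer, Gm7325 in the files), the cadherins Cdh2 and Cdh15, the junctional adhesion molecules Jam2 and Jam3, the nephrin-family genes Nphs1 and Kirrel, and the tetraspanins Cd9 and Cd81. These 10 are part of 35976 genes in the files, and all 10 passed the filter on low counts that left 17348 genes for testing. There were 3 libraries of NF-YAcKO SCs and 3 of NF-YAfl/fl SCs, numbered as replicates. The labels do not say whether each library came from a separate mouse. NF-YA is the part of the trimeric transcription factor NF-Y that contacts DNA. Both genotypes carried floxed NF-YA alleles and received tamoxifen (dissolved at 20 mg/ml), at 5 to 7 weeks of age according to the labels. The study's methods give an older age range. NF-YAcKO mice also carried Pax7-CreERT2, which limits deletion to cells that express Pax7 when tamoxifen is given, and the controls carried no Cre. SCs were enriched by magnetic depletion of CD31, CD45, CD11b and Sca1 cells and collected in growth medium, so differentiation had not been induced by a change of medium.

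Fusion builds the multinucleated muscle fibre from single myoblasts. Cells first adhere through cadherins and immunoglobulin-family receptors, then remodel actin below the contact, and the pair Mymk and Mymx, made as myoblasts differentiate, completes the merging of the plasma membranes. Tetraspanins organize adhesion and fusion proteins within the membrane, and CD9 and CD81 act in several kinds of cell fusion.

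Mymx encodes a microprotein, and its reading frame is shown because it is the shortest product of the set. In the GENCODE M21 annotation of GRCm38 the coding part of 1 of its transcripts, with 2 exons, lies at chr17:45601420-45601671 on the minus strand and holds 84 codons (252 nt, stop codon left out). The start codon is in capitals.
Mymx: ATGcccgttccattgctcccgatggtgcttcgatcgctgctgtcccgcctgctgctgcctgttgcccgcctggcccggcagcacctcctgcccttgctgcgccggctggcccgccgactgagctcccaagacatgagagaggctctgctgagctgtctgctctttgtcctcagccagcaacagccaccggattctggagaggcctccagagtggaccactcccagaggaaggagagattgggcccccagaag

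Because NF-Y binds the CCAAT box, the RefSeq promoter windows (GRCm38.p6, 250 bases before to 50 after the start) of the members were searched for CCAAT, and for CAGCTG, an E-box form bound by myogenic factors. Windows were found for 5 members, Cdh15, Cd9, Cd81, Kirrel and Nphs1, and both strands were read. Starts are those of RefSeq, and the windows of Cdh15 and Nphs1 lie wholly inside the genes as GENCODE places them. CCAAT was found in 1 of the 5, Cdh15, where it starts at base 19, counted from the first transcribed base in RefSeq. Among all 32851 windows, 37.4% hold it. CAGCTG was found in Cd9 and Cd81, 25 and 145 bases before their RefSeq starts, and in 16.3% of all windows. As GENCODE places the genes, the Cd9 match lies inside the gene and the Cd81 match lies before it. Kirrel and Nphs1 held neither. The stretches around the matches are shown with the motif in capitals, at chr8:122848380-122848409 (plus strand), chr6:125494768-125494797 (minus strand) and chr7:143052593-143052622 (plus strand) in that order. A match is a description of the letters in the window and not a measured binding site.
Cdh15: ctgtcactcagcCCAATgctctcagcgtgg
Cd9: acatgcgcatagCAGCTGgccgagcgccgt
Cd81: gtccccaagaacCAGCTGcaccaagttcca

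The libraries held 26936230 to 41118984 expected counts each, so 3 counts are worth 0.0705 to 0.115 CPM (counts scaled to the normalized library size). The Nfya entry for the deleted allele took 22.3% to 34.2% of Nfya counts in the NF-YAcKO libraries and 0 counts in the NF-YAfl/fl libraries. The NF-YAcKO libraries held Xist at 836 to 852 CPM and the Y-linked Ddx3y at 0.047 to 0.0957 CPM, against Xist at 0.306 to 0.475 and Ddx3y at 80.9 to 88.6 CPM in NF-YAfl/fl. The study's methods describe male mice, and genotype and this sex-linked difference cannot be told apart. All 10 members are autosomal, and the part of sex in their values was not tested. SC identity was checked with Pax7, which was found at 145 to 201 CPM in NF-YAcKO and 73.5 to 105 CPM in NF-YAfl/fl (log2 fold change 0.94, FDR = 0.00624, edgeR, under the fold threshold). Of the other myoblast markers Des was called lower (-2.09), and Myf5 and Myod1 overlapped. Summed macrophage markers reached 135 to 266 CPM in NF-YAcKO against 4.65 to 14.5 CPM in NF-YAfl/fl, and 6 of the 8 were called higher. Schwann cell markers summed to 15 to 20.2 CPM in NF-YAcKO and 6.19 to 8.65 CPM in NF-YAfl/fl (3 of 4 called higher), and endothelial markers to 11.9 to 17.6 and 4.11 to 7.52 CPM (Kdr called higher of 4). The part of these markers in the results was not tested. The summed fibro-adipogenic markers were at 34.4 CPM in NF-YAfl/fl library 3 against 181 and 206 CPM in the other NF-YAfl/fl libraries and 163 to 198 CPM in NF-YAcKO. Within this list Lum was called higher in NF-YAcKO, Dcn was at 68.3 to 76.3 CPM in NF-YAcKO and 9.26 to 28.8 CPM in NF-YAfl/fl, and Ly6a and Pdgfra overlapped. NF-YAfl/fl library 3 also had the lowest pericyte and smooth muscle sum (153 CPM, against 213 to 559 CPM in the other 5). Summed differentiation markers (Myog, Mef2c, Myh3, Ckm, Acta1, Tnnt3) were at 46 to 117 CPM in NF-YAcKO and 7350 to 9510 CPM in NF-YAfl/fl, and 6 of 6 were called lower.

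Mymk, Mymx and Cdh15 were lower in NF-YAcKO SCs, and no member was higher. A gene was called when edgeR's quasi-likelihood test gave an FDR (Benjamini-Hochberg adjusted p) under 0.01 and the log2 fold change of NF-YAcKO over NF-YAfl/fl was above 1 or below -1. By this rule 3 of 10 members were called lower, and 7.67% of all tested genes were. In the other direction 0 of 10 were called, against 4.65% of all tested genes. No member had a higher level with an unadjusted edgeR p under 0.05, and DESeq2 and limma also called 0 higher. In 6 of 10 members every NF-YAcKO library lay below every NF-YAfl/fl library, which was so for 26.2% of all tested genes. No member lay wholly above, against 29.1% of all genes. The median log2 fold change of the members was -0.39, and that of all tested genes was -0.02. The members were chosen with earlier results of these data known, so these shares are a description only.

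**Figure D1:**
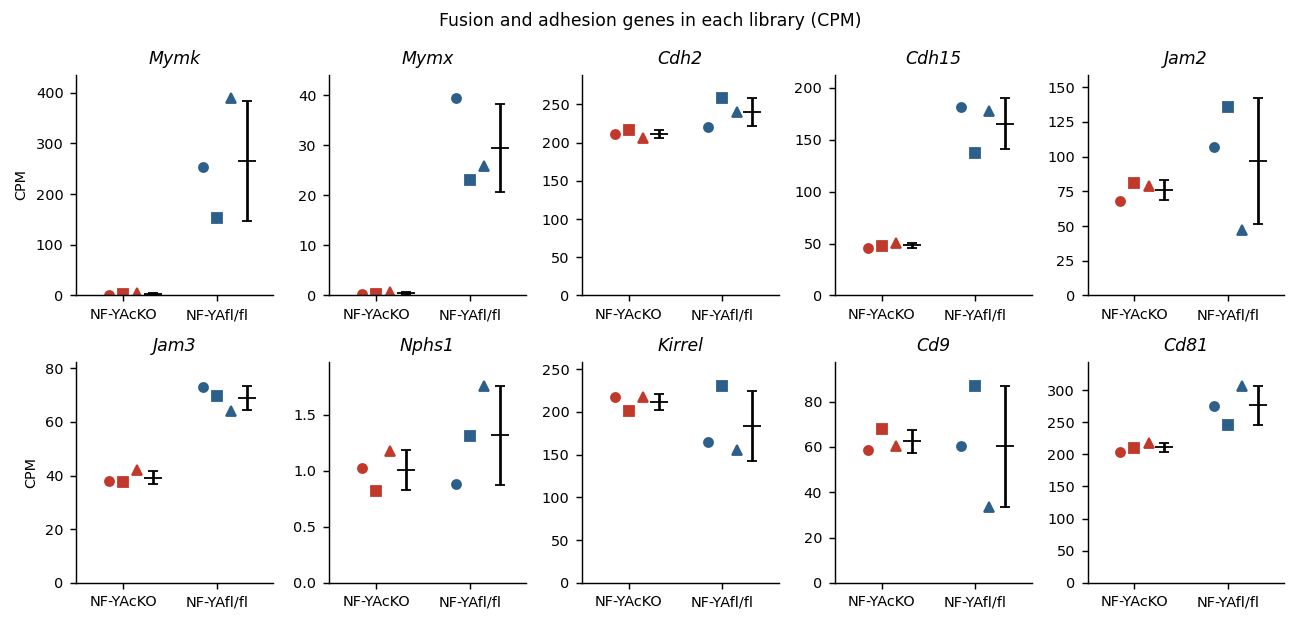
Each panel plots 1 gene, with CPM on a linear axis from 0, NF-YAcKO libraries in red and NF-YAfl/fl libraries in blue (circle, square and triangle for replicates 1, 2 and 3), and the mean ± SD (n = 3) as a black bar. Mymk, Mymx and Cdh15 were low in all 3 NF-YAcKO libraries, while Jam2, Nphs1, Kirrel and Cd9 overlapped between the genotypes.

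Mymk, which lies at chr2:27061636-27072179 (minus strand), encodes the membrane protein needed in both partners of a fusion. Its level was 1.5, 2.46 and 3.95 CPM in the NF-YAcKO libraries and 253, 153 and 389 CPM in the NF-YAfl/fl libraries. The lowest control was far above the highest NF-YAcKO library, and both genotypes varied more than 2-fold among their own libraries. The means were 2.64 ± 1.23 and 265 ± 118 CPM (SD, n = 3), a ratio of 101, and edgeR's quasi-likelihood test gave a log2 fold change of -6.63 (SE 0.51, FDR = 0.000334). The NF-YAcKO values rest on 47 to 168 counts per library and are above the level that 3 counts give.

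Mymx (chr17:45600971-45602102, minus strand) encodes the microprotein that acts with Mymk in membrane merging. It was found at 0.383, 0.362 and 0.635 CPM in NF-YAcKO and at 39.4, 23 and 25.9 CPM in NF-YAfl/fl, with no overlap. Unlike Mymk, its highest control was library 1 and not library 3. The means of 0.46 ± 0.152 and 29.4 ± 8.73 CPM (SD, n = 3) differed by a ratio of 64 (log2 fold change -5.97, SE 0.33, FDR = 9.13e-05, edgeR). Only 12 to 27 counts per library stand behind the NF-YAcKO values. Mymk counts per Mymx count were 3.92, 6.8 and 6.22 in NF-YAcKO and 6.42, 6.66 and 15 in NF-YAfl/fl. The ratio overlapped between the genotypes, and NF-YAfl/fl library 3 held the highest value.

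The 6 differentiation markers fell in the same libraries, so Mymk and Mymx were also set against each marker within a library, a comparison chosen after values were seen and given without a test. For Mymk per Myog (myogenin, a transcription factor of muscle differentiation) the NF-YAcKO libraries held 0.14, 0.132 and 0.126 Mymk counts per Myog count, and the NF-YAfl/fl libraries 0.262, 0.263 and 0.268. The control values differed by a coefficient of variation of 1.25% although Myog itself ran from 584 to 1450 CPM, and every NF-YAcKO library was below every control. The direction depended on the marker. Per count of Myh3, the embryonic myosin heavy chain, Mymk was at 0.157 to 0.233 in NF-YAcKO and lower, at 0.0387 to 0.0986, in NF-YAfl/fl. Per Mef2c and Tnnt3 the NF-YAcKO ratios lay below the controls, and per Ckm and Acta1 they overlapped. Mymx per Mef2c was at 0.0481 to 0.0667 in NF-YAcKO and higher, at 0.102 to 0.119, in NF-YAfl/fl. Per Myh3 (0.0231 to 0.0594 against 0.00581 to 0.0086) and per Acta1 (0.0178 to 0.0264 against 0.011 to 0.0131) the Mymx ratios of NF-YAcKO lay above the controls, and per Myog, Ckm and Tnnt3 they overlapped. In bulk samples fewer differentiating cells and less RNA per cell cannot be told apart.

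**Figure D2:**
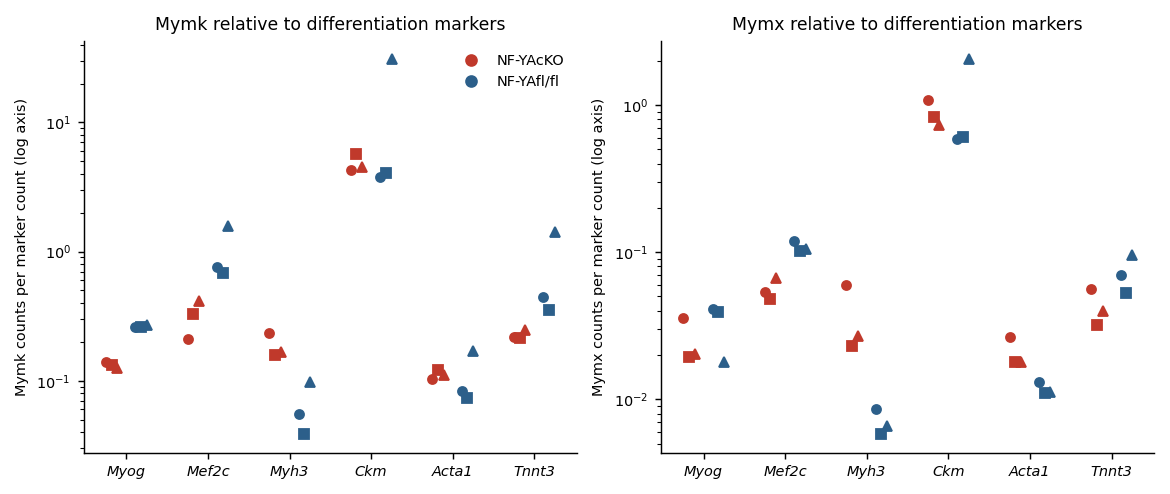
Counts of Mymk (left) and Mymx (right) per count of each differentiation marker are plotted on a log axis, 1 point per library, NF-YAcKO in red and NF-YAfl/fl in blue (circle, square and triangle for replicates 1, 2 and 3). The 3 NF-YAfl/fl points for Mymk per Myog lie together at 0.262 to 0.268, above the NF-YAcKO points at 0.126 to 0.14, and the Myh3 points have the opposite order.

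Cdh15, or M-cadherin, is the cadherin typical of SCs and myoblasts and lies at chr8:122847966-122867397 (plus strand). It was measured at 45.9, 48.1 and 50.4 CPM in NF-YAcKO and at 181, 137 and 178 CPM in NF-YAfl/fl. The NF-YAcKO libraries were close to each other, and the lowest control was above them all. The means of 48.2 ± 2.26 and 165 ± 24.8 CPM (SD, n = 3) correspond to a ratio of 3.43 (log2 fold change -1.78, SE 0.13, FDR = 0.000272, edgeR). Among the members with a promoter window, which leaves out Mymk and Mymx, Cdh15 was the one with a CCAAT match, shown above. CCAAT is a common motif, found in 37.4% of all windows, and this match lies inside the gene as GENCODE places it. Whether NF-Y binds there was not tested.

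Cdh2, or N-cadherin (chr18:16588877-16809246, minus strand), joins cells through the same kind of calcium-dependent contact. It was at 211, 217 and 206 CPM in NF-YAcKO and 221, 258 and 240 CPM in NF-YAfl/fl. These CPM values did not overlap, but the gap was small and edgeR gave a log2 fold change of -0.18 (95% interval -0.4 to 0.04, FDR = 0.163). On the TPM scale, which allows for transcript length, the genotypes overlapped for Cdh2. The pair of cadherins therefore stood in different proportion, with 0.218, 0.222 and 0.245 Cdh15 counts per Cdh2 count in NF-YAcKO and 0.822, 0.53 and 0.74 in NF-YAfl/fl.

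Jam2 and Jam3 are immunoglobulin-family receptors that bind each other across cell contacts. Jam3 (chr9:27097384-27155421, minus strand) was at 37.9, 37.6 and 41.9 CPM in NF-YAcKO and at 73.2, 69.7 and 64 CPM in NF-YAfl/fl, without overlap. Its ratio was 1.76 and its log2 fold change -0.82 (SE 0.1, FDR = 0.0014, edgeR), so it passed the FDR threshold and not the fold threshold. Its FDR ran from 3.71e-11 to 0.0199 over 13 alternatives and was under 0.01 in 9 of them. Jam2 (chr16:84774123-84825928, plus strand) was at 67.8, 81.1 and 78.6 CPM in NF-YAcKO, and at 107, 136 and 47 CPM in NF-YAfl/fl. Controls 1 and 2 were above every NF-YAcKO library and control 3 was below them. edgeR gave Jam2 a log2 fold change of -0.35 (95% interval -1.18 to 0.47, FDR = 0.455), and -0.69 without NF-YAfl/fl library 3 (FDR = 0.00491) or -0.03 without library 2 (FDR = 0.953). Library 3 is the one with the low fibro-adipogenic and pericyte markers, and their part in the Jam2 value was not tested.

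Nphs1 (nephrin) and Kirrel are related to the receptors through which insect founder and fusion-competent myoblasts recognise each other. Nphs1 (chr7:30458315-30487223, plus strand) was the member with the lowest level per length, with 1.02, 0.82 and 1.18 CPM in NF-YAcKO and 0.879, 1.31 and 1.76 CPM in NF-YAfl/fl. The genotypes overlapped, and the log2 fold change of -0.39 had a 95% interval from -1.16 to 0.37 (FDR = 0.369, edgeR). Changes in both directions lie within that interval, so equal levels are not shown. Kirrel (chr3:87078593-87174747, minus strand) was far more abundant, at 217, 201 and 218 CPM in NF-YAcKO and 165, 231 and 155 CPM in NF-YAfl/fl. Control 2 was above all NF-YAcKO libraries and the other controls were below them. The log2 fold change of Kirrel was 0.21 (95% interval -0.17 to 0.59, FDR = 0.342, edgeR) and 0.4 without NF-YAfl/fl library 2 (FDR = 0.0153).

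The tetraspanin Cd81 (chr7:143052739-143067934, plus strand) was at 204, 210 and 218 CPM in NF-YAcKO and at 275, 246 and 307 CPM in NF-YAfl/fl. Its groups did not overlap, but its ratio was 1.31 and its log2 fold change -0.39 (95% interval -0.64 to -0.14, FDR = 0.0267, edgeR) did not pass. Cd9 (chr6:125460266-125494791, minus strand) was at 58.6, 68.1 and 60.6 CPM in NF-YAcKO and at 60.5, 87.1 and 33.5 CPM in NF-YAfl/fl. The controls spread to both sides of the NF-YAcKO libraries, with library 3 lowest as for Jam2, and the log2 fold change of Cd9 was 0.05 (95% interval -0.69 to 0.78, FDR = 0.916, edgeR). That interval includes changes in both directions and does not show equal levels.

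**Figure D3:**
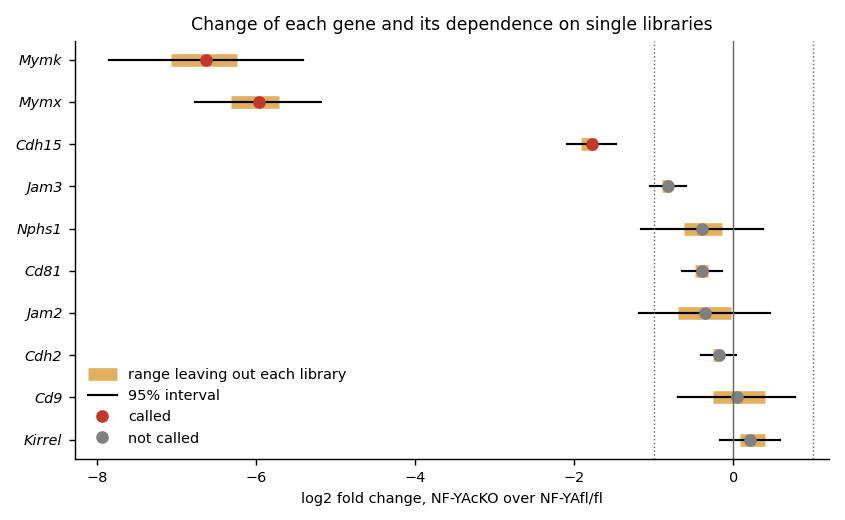
Points show the log2 fold change of each gene (NF-YAcKO over NF-YAfl/fl, negative is lower in NF-YAcKO), black lines its 95% interval and tan bars the range when each of the 6 libraries is left out in turn. Dotted lines mark the fold threshold of 1 and -1, and the called genes Mymk, Mymx and Cdh15 (red) stayed beyond it in every range.

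Levels per length, as TPM, were ordered differently in the genotypes. In NF-YAfl/fl, Mymk was the most abundant member at 238 ± 62.8 TPM (SD, n = 3) and overlapped with Cd81 at 230 ± 19.4 TPM. Below them came Cd9 (71.2 ± 43.5 TPM), Cdh15 (69.2 ± 6.98), Cdh2 (56.5 ± 13.8), Mymx (51.6 ± 16.1), Jam3 (43.8 ± 10.1), Kirrel (30.1 ± 12.5) and Jam2 (25.3 ± 15.6). Each of these overlapped with the next in order, except Jam2, which lay above Nphs1 in every library. In NF-YAcKO, Cd81 stood first at 167 ± 13.9 TPM, followed without overlap by Cd9 at 64.9 ± 0.39, Cdh2 at 47 ± 3.06 and Kirrel at 31.8 ± 4.04 TPM. Jam3, Cdh15 and Jam2 followed at 23.2 ± 2.72, 19.2 ± 1.67 and 17.3 ± 1.13 TPM, neighbours that overlapped. Mymk was at 2.35 ± 1.14 and Mymx at 0.757 ± 0.254 TPM, and Nphs1 was last in both genotypes at 0.197 ± 0.0513 and 0.267 ± 0.0757 TPM. On this scale 5 of the 10 members, Mymk, Mymx, Cdh15, Jam3 and Cd81, did not overlap between the genotypes.

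Transcripts were compared for the 4 members with at least 2 transcripts of 5% or more of the gene's TPM in some library, which are Mymx, Cdh2, Jam2 and Kirrel. The longer Cdh2 transcript (8940 nt) made up 2.4%, 2.25% and 2.72% of Cdh2 TPM in NF-YAcKO and 3.87%, 5.05% and 4.07% in NF-YAfl/fl. Every NF-YAcKO share was lower, the means were 2.46% ± 0.24 and 4.33% ± 0.632 (SD, n = 3), and the exact two-sided permutation test gave p = 0.1, the smallest that 3 against 3 can give. Its own level was 9.51 ± 0.683 CPM in NF-YAcKO and 18.9 ± 4.11 CPM in NF-YAfl/fl, while the CPM of the shorter transcript, of 4843 nt, overlapped between the genotypes. Of the 6 Kirrel transcripts, the 7675-nt form was at 2.02%, 2.05% and 2.5% in NF-YAcKO and 2.54%, 4.7% and 5.46% in NF-YAfl/fl, again with the smallest exact p of 0.1 although the nearest values almost touched. The 4336-nt Jam2 transcript overlapped, at 0% to 4.25% in NF-YAcKO and 2.55% to 15.7% in NF-YAfl/fl (exact permutation p = 0.3). In all 13 transcripts were tested and 4 reached the smallest exact p, which is 0.325 after Benjamini-Hochberg adjustment. The 2 Cdh2 transcripts are among these 4, and because their shares add up to the whole gene they are the same comparison. The remaining one, beside the Kirrel form, is an 811-nt Mymx form, whose NF-YAcKO shares rest on the few Mymx counts given above.

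**Figure D4:**
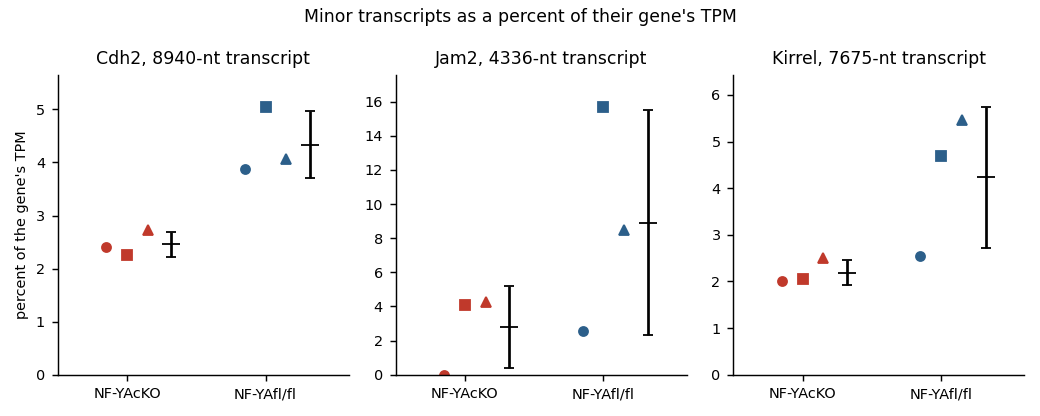
Each panel plots 1 minor transcript as a percent of its gene's TPM, linear axis from 0, with NF-YAcKO libraries in red, NF-YAfl/fl libraries in blue (circle, square and triangle for replicates 1, 2 and 3) and mean ± SD (n = 3) in black. The Cdh2 transcript was at 2.25% to 2.72% in NF-YAcKO and 3.87% to 5.05% in NF-YAfl/fl, and the Jam2 transcript overlapped.

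The genes with the pattern most like Mymk, Mymx and Cdh15 were taken by the smallest root mean square distance of centred log2(CPM + 1) over the 6 libraries, among the 9457 tested genes that averaged 10 CPM or more. For Mymk these were Atp2a1, the fast-muscle calcium pump (distance 0.314), Myog (0.317), Col25a1, a membrane collagen (0.327), Mylk4, a myosin light chain kinase (0.337), and Mypn, a sarcomere protein (0.377). For Mymx they were Art1 (0.127), Txlnb (0.129), Filip1 (0.165) and Trim63, a muscle ubiquitin ligase (0.186). Nearest to Cdh15 were Acsl1, which activates fatty acids (0.0591), Pkia, an inhibitor of protein kinase A (0.0824), Cacna2d1, a calcium channel subunit (0.0826), Capn6 (0.101) and Stard13 (0.105). Acsl1 was at 20.2, 21 and 19.9 CPM in NF-YAcKO and 74.7, 55.5 and 75.1 CPM in NF-YAfl/fl, with control 2 lowest as for Cdh15. Because 1 is added to CPM, the distance also depends on a gene's level, and Mymx was at 0.362 to 0.635 CPM in NF-YAcKO. Distances to different members are therefore not comparable. The distance is a description over 6 libraries.

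Around the members, 111 further genes of adhesion and fusion were listed in 6 groups, and 101 of them were tested. By edgeR 11 of 101 were called lower and 5 higher, where 7.67% and 4.65% of all tested genes were. Nothing particular to the lists is read from these shares. Their median log2 fold change was 0.02 against -0.02 for all tested genes. Of these 16 calls, 5 were made under all 13 alternatives, and all 5 are lower: Cav3, Tmem182, Ano5, Dysf and Cyfip2. When each library was removed in turn, 0 to 4 of the 5 higher genes and 6 to 10 of the 11 lower genes were still called. Higher calls over all tested genes also fell in most of these fits, from 806 to as few as 177.

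Among other fusion factors 4 of 11 were called lower and 0 higher, with a median log2 fold change of -0.98 (0 higher at an unadjusted edgeR p under 0.05, and 0 by DESeq2 or limma). Cav3, the muscle caveolin, was at 0.67, 0.652 and 0.917 CPM in NF-YAcKO and at 121, 68.3 and 84.4 CPM in NF-YAfl/fl (log2 fold change -6.92, SE 0.3, FDR = 5.29e-05, edgeR). Tmem182, a muscle membrane protein, had a log2 fold change of -5.71 and Ano5, a membrane protein related to phospholipid scramblases, of -3.63. Dysf (dysferlin), which acts in membrane repair, was at 18.8 to 21.5 CPM against 118 to 148 CPM (log2 fold change -2.76). Its relative Myof (myoferlin) was at 613 to 640 CPM in NF-YAcKO and 415 to 603 CPM in NF-YAfl/fl, a log2 fold change of 0.35 that did not pass (FDR = 0.107, edgeR), and Ehd2, which works with ferlins, was also not called (-0.34, FDR = 0.201).

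For the actin machinery below the contact, 1 of 31 genes was called lower and 2 higher (median log2 fold change 0.05). Cyfip2, a subunit of the WAVE complex that drives actin branching, was at 2.1, 1.83 and 2.44 CPM in NF-YAcKO and 39.2, 25.4 and 47.2 CPM in NF-YAfl/fl (log2 fold change -4.13, SE 0.27, FDR = 0.000173, edgeR). The GTPases Rhoa (0.01, FDR = 0.934) and Cdc42 (0.05, FDR = 0.706) overlapped between the genotypes. The higher genes were Nckap1l, the blood-cell form of a WAVE subunit, with a log2 fold change of 1.45 and Was, the blood-cell WASP gene, which at 0.447 to 0.51 CPM in NF-YAcKO is under the level set for naming and was added after its value was seen. Both are known from blood cells, and the macrophage markers were higher in the same libraries; their part in these results was not tested. Nckap1l was called in 2 of 13 alternatives and Was in 4.

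In the cadherin and catenin group 1 of 14 genes was called lower and 1 higher (median log2 fold change -0.2). Cdh3 (P-cadherin) was at 20.8, 15.1 and 13.6 CPM in NF-YAcKO and 3.29, 3.87 and 1.63 CPM in NF-YAfl/fl, and Cdh13 (T-cadherin, which lacks a cytoplasmic tail) at 18.4 to 24.1 against 42.4 to 61.6 CPM. Their log2 fold changes were 2.49 and -1.3, and each was called in 10 of 13 alternatives, but in 3 of the 6 that left out a library. Ctnnb1 (beta-catenin) was at 799 to 817 CPM in NF-YAcKO and 575 to 596 CPM in NF-YAfl/fl, and its log2 fold change of 0.47 passed the FDR threshold (FDR = 0.00671, edgeR) but not the fold threshold. Cdon, a co-receptor of cadherins, was not called (-0.77, FDR = 0.151), and NF-YAfl/fl library 3 held it at 1730 CPM against 648 and 675 CPM in the other controls.

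Ncam1 and Fyn were the 2 genes called lower among 11 tested immunoglobulin-family partners and adaptors, where 0 were called higher (3 at an unadjusted edgeR p under 0.05, 0 by DESeq2 or limma) and the median log2 fold change was -0.12. Ncam1, the neural cell adhesion molecule of myoblasts, was at 412 to 491 CPM in NF-YAcKO and 915 to 2080 CPM in NF-YAfl/fl (log2 fold change -1.63). It was called in 9 of 13 alternatives and Fyn, a Src-family kinase (-1.03), in 11. Of the 6 alternatives that left out a library, Ncam1 was called in 2 and Fyn in 5. The scaffold Tjp1 (-0.14, FDR = 0.469) and Ptgfrn, a binding partner of CD9 and CD81 (0.29, FDR = 0.0672), were not called by edgeR.

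The other tetraspanins included 3 of 24 called lower and 1 called higher, with a median log2 fold change of 0.03. Tspan13 was at 0.606 to 1.1 CPM in NF-YAcKO and 4.14 to 13.5 CPM in NF-YAfl/fl (log2 fold change -3.47, called in 7 of 13 alternatives), and Tspan33 at 1.43 to 4.47 against 13.8 to 23 CPM (-2.64, called in 11). Of the 6 alternatives that left out a library, Tspan13 was called in 2 and Tspan33 in 4. Tspan32 was the other gene called lower, at no more than 0.765 CPM in any library (called in 5 of 13 alternatives), and was added after its value was seen. Upk1b, a uroplakin tetraspanin, was the higher one (2.98), called in 6 of 13 alternatives. The abundant Cd63 (0.22, FDR = 0.525) and Tspan9 (-0.89, FDR = 0.077) were not called by edgeR.

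Phosphatidylserine exposed on myoblasts, and its receptors, take part in fusion, and here 0 of 10 tested genes were called lower (0 at an unadjusted edgeR p under 0.05, 0 by DESeq2 or limma) and 1 was called higher, with a median log2 fold change of 0.32. Stab1 (stabilin-1, a receptor also of macrophages) was at 3.22, 3.23 and 2.44 CPM in NF-YAcKO and 0.956, 0.624 and 1.36 CPM in NF-YAfl/fl (log2 fold change 1.6), and was called in 5 of 13 alternatives. The macrophage markers given above were higher in the same libraries, and their part was not tested. Axl, a receptor kinase that binds phosphatidylserine through Gas6, and Anxa1, an annexin, were not called (0.56, FDR = 0.245 and 0.52, FDR = 0.192, edgeR). Both were lowest in NF-YAfl/fl library 3, as were Jam2 and Cd9, with Axl at 290 CPM there against 697 and 845 CPM in the other controls.

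**Figure D5:**
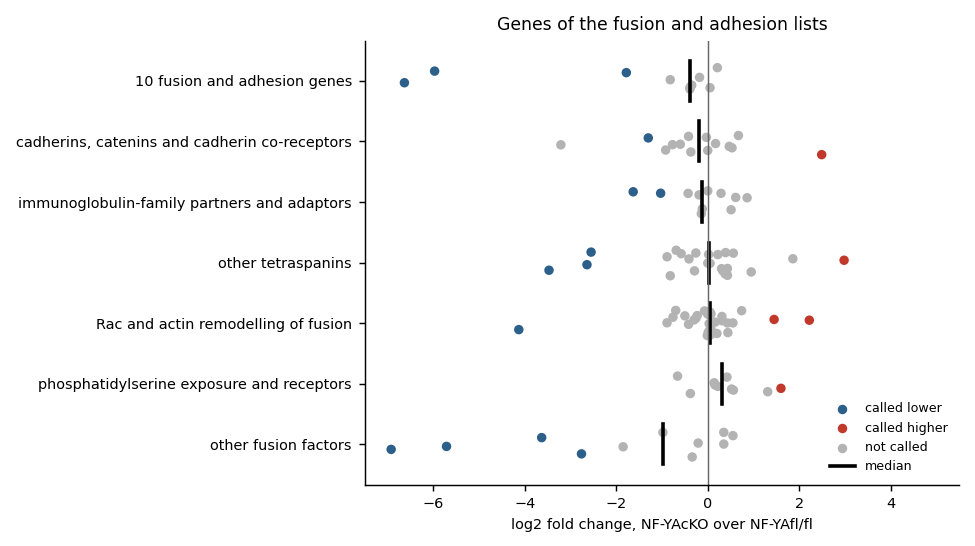
Each point is 1 tested gene at its log2 fold change (NF-YAcKO over NF-YAfl/fl), in the row of its group, blue when called lower, red when called higher and grey when not called; the black line is the group's median. The other fusion factors hold the lowest group median, -0.98, and the medians of the other 5 listed groups lie between -0.2 and 0.32.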

How the data were processed

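The 3 NF-YAcKO and 3 NF-YAfl/fl SC libraries were grouped by the genotype in the labels. The labels give separate samples and the replicate numbers. They do not say that each sample is a separate animal or that the numbers pair animals. According to the study's methods and the submitters' processing notes, the authors made stranded total RNA libraries, used Bowtie2 to align the reads to mouse transcripts (mm10), and RSEM for quantification. The strand setting of the quantification is not given in the sources used here. The deposited values are expected counts, which are not normalized and need not be whole because a read that matches several transcripts is divided among them, TPM, which the authors' software scaled by length to a common sum and which keeps no depth, and each transcript's percent of its gene's TPM. In GENCODE, the spans of 8 of the 10 members (not Mymk and Mymx) overlap another gene. Whether reads were divided with these genes depends on the authors' transcript set and was not tested.

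After rounding of the expected counts, a gene was tested when 2 or more libraries held over 10 counts of it. The quasi-likelihood test of edgeR 4.0.16 (R 4.3.3) was run with TMM and a genotype term alone, with Benjamini-Hochberg adjustment over all tested genes. A call needed an FDR below 0.01 with an absolute log2 fold change above 1. The SE is the log2 fold change over the square root of F, and the 95% interval uses the test's degrees of freedom. Transcript percents were compared by exact permutation. CPM uses TMM library sizes. Library totals were 26936230 to 41118984. The floor of 3 counts covers counting error only. The method was tested on simulated data, where 198 of 200 changed genes were recovered among 16998 genes. The simulation gave all genes and both genotypes the same spread, and all its changes were beyond the fold threshold. It therefore does not cover smaller changes or the unequal spread of the genotypes. Coordinates are from GENCODE M21 (GRCm38), promoter windows from RefSeq (GRCm38.p6). Mymk, Mymx, Cdh2, Jam2 and Jam3 have no window in that table. Plots used matplotlib 3.10.9, and permutations scipy 1.17.1.

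The members and gene lists were chosen with earlier results of these data known. Named genes were every member; per list, up to 4 called genes with the largest change and a mean of at least 1 CPM, and the 2 genes not called with the highest mean; and the 5 genes nearest to Mymk, Mymx and Cdh15, of which 1 is not reported here. The settings also tried were filterByExpr, no filter, DESeq2 1.42.0, edgeR with DESeq2 size factors, limma 3.58.1 on log2(TPM + 1) and log2(TPM + 0.1), an FDR under 0.05, the replicate number as a block, and leaving out each library.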

Additional observations from a re-analysis of the deposited data

How the results depend on the processing

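Mymk, Mymx and Cdh15 were called lower, and no other member was called, under each alternative run. Of all tested genes, limma on log2(TPM + 1) called 704 lower and 231 higher, limma on log2(TPM + 0.1) called 361 higher, and an FDR under 0.05 gave 2025 lower, against 1331 and 806 in the reported fit. Leaving out each library gave 523 to 1684 lower and 177 to 890 higher, with fewer calls by over 1.5 times without any NF-YAcKO library or NF-YAfl/fl library 1. The listed adhesion and fusion genes then gave 6 to 12 lower and 0 to 5 higher, and both limma settings called 1 higher. Cd9 reversed to -0.06 without NF-YAcKO library 2 and -0.25 without NF-YAfl/fl library 3, and was 0.4 without NF-YAfl/fl library 2. As a percent of expected counts, the difference of the 8940-nt Cdh2 transcript was -3.31 points, against -1.87 of TPM. The causes were not tested, beyond the smaller number of libraries where one was left out.

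Deviations of same-numbered libraries correlated at 0.224, -0.116 and 0.0524. The value of the libraries numbered 1 (0.224) was the highest of all pairs, and NF-YAcKO library 2 correlated best with NF-YAfl/fl library 3 (0.172). With 3 libraries in each genotype, these values cannot decide whether the replicate numbers pair the libraries. With the replicate block 947 genes were called lower and 625 higher, 3 members lower and 0 higher, and 9 listed genes lower and 2 higher. Common biological variation was 0.31 in NF-YAfl/fl and 0.105 in NF-YAcKO. The fewest counts in a library were 12 for Mymx and 23 for Nphs1.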

Other observations

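Within the NF-YAcKO genotype, Mymk was lowest in library 1 (1.5 CPM) and highest in library 3 (3.95 CPM). The 6 differentiation markers had the same lowest and highest libraries, for example Myog at 10.7 and 31.4 CPM, Myh3 at 6.44 and 23.5 CPM and Acta1 at 14.5 and 35.5 CPM. Cdh15 did too, over the narrow range of 45.9 to 50.4 CPM, whereas Mymx was lowest in library 2 (0.362 CPM). The entry of the deleted Nfya allele took 22.3% of Nfya counts in library 1 and 34.2% in library 3. These are values of 3 libraries, noticed in the data and not tested.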
